A study of Homo sapiens with 6 samples.

Results

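Peaks of N6-methyladenosine (m6A), the commonest internal modification of messenger RNA, were described here in the genes that encode chromatin modifiers and remodellers. Members were taken by name from 9 gene families. These included the methyltransferases KMT and SETD, the demethylases KDM, the deacetylases HDAC and SIRT, and the bromodomain genes BRD. The others were the remodeller genes CHD and SMARC and the ARID genes, some of which encode remodeller subunits. Names with a hyphen, KDM5D and pseudogenes were left out. The rule took 91 of the 16810 genes with a peak in either treatment, and no measured value entered it. BRD3OS, transcribed from the strand opposite BRD3, matches the name pattern and was kept, although it is not a bromodomain gene.

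The cells were MHCC97H, an established human hepatocellular carcinoma line with high metastatic capacity. They received for 48 h either DMSO, the vehicle, or 2 µM FB23-2, a small-molecule inhibitor of the m6A demethylase FTO, with 3 samples each. All groups come from this 1 line, so the samples share its genetic background, and the labels do not say whether the 3 samples were separate cultures. Poly(A) RNA was fragmented, fragments that carry m6A were enriched with an antibody, and both input and enriched RNA were sequenced (MeRIP-seq). The authors deposited 1 peak list per treatment with no column per sample, so no peak has a replicate check, read depth is unknown, and whether the treatments differ beyond the sample-to-sample spread cannot be tested.

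Chromatin modifiers write, remove or bind chemical marks on histones. Most methyltransferases of the KMT and SETD families add methyl groups to lysines, and KDM enzymes take them off. HDAC and SIRT enzymes remove acetyl groups that bromodomain proteins bind. CHD and SMARC proteins, mostly as subunits of large complexes, and some ARID proteins take part in remodelling, which uses ATP to move or evict nucleosomes. In mRNA, the METTL3 and METTL14 complex deposits m6A mainly around the stop codon, in the 3' UTR and in long internal exons, within a motif whose core is often GGAC, and FTO can remove it. Several of these chromatin genes are recurrently mutated in liver cancer, ARID1A and ARID2 among them.

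Sequences at annotated transcription starts were available for 80 of the 91 genes from RefSeq (GRCh38.p14), with 131 starts in all, and 28 starts in 22 genes overlapped a peak of the gene. The first 50 transcribed bases were searched for GGAC on the RNA strand and for its reverse complement GTCC as the other strand. GGAC was found at 22 of the 131 starts (16.8%) and GTCC also at 22 (16.8%), against 18.9% and 17.6% of all 35116 starts in the table. The stretches below are shown because a deposited peak covered the motif in them at the very start of a transcript; 1 more, in SETD7, lay in a peak of 49911 bases and is not printed. They are written 5′ to 3′ in the sense of the RNA, with T for U and the GGAC core in capitals, and a match is a description of the letters and not a mapped m6A site.
BRD2, chr6:32970948-32970973, plus strand: cgctgaccgatGGACcagccgctccg
SMARCD3, chr7:151248645-151248670, minus strand: agagcccagcaGGACtcagaggggag
BRD9, chr5:892521-892546, minus strand: tccgggcacgcGGACgggggtcctgg
KDM2B, chr12:121580214-121580239, minus strand: atggtttcctaGGACtttgcaaacgg
The stretches of BRD2, which encodes a BET bromodomain protein, and of SMARCD3, a subunit of the BAF remodelling complex, lay inside 5' UTR peaks of both lists. The log2 fold of the BRD2 peak was 1.85 under DMSO and 1.93 under FB23-2, and that of the SMARCD3 peak 1.64 and 1.37. In BRD9, which encodes a bromodomain subunit of a BAF complex, the motif lay inside an FB23-2 peak alone (chr5:892126-892621, log2 fold 1.33), since the DMSO peak there ended at 892525. In KDM2B, which encodes a demethylase that binds unmethylated CpG islands, it lay inside a DMSO peak alone (chr12:121580166-121581016, log2 fold 2.92), since the FB23-2 peak began at 121580341. Both of these peaks nevertheless counted as shared between the lists, so the difference is one of borders.

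The log2 fold of a peak is the authors' value. It is read here as enriched RNA over input, although no header says so, and is used only to describe peaks within a list. Peaks of the 2 lists were matched on 1 strand: a peak counted as shared if an overlap with one from the other treatment reached 50% of whichever was shorter, and as DMSO-only or FB23-2-only if not. Spans run from the first to the last base of a peak on the genome and include introns.

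The 91 genes carried many peaks, and most peaks were in both lists. The DMSO list held 458 peaks in 89 of the genes and the FB23-2 list 444 peaks in all 91, against 42813 and 41838 peaks in the whole lists. The median was 5 peaks per gene in both lists, with a range of 1 to 18 under DMSO and 1 to 19 under FB23-2. Over all genes with a peak the median was 2. The chromatin genes were also longer, with a median span of 54230 bases against 24238.5 for all genes, and across the members peak number went with gene span (Spearman's rho 0.46 in both lists, 89 and 91 genes that share 2 lists, given as a description).

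Of the DMSO peaks, 364 (79.5%, exact 95% interval 75.5 to 83.1) were shared, as were 370 FB23-2 peaks (83.3%, 79.5 to 86.7). These intervals cover counting only, and peaks of 1 gene share its RNA. Over the whole lists the shares were 79.9% and 82.7%, so the chromatin genes stood at the background. Shared peaks in 48 cases had identical borders in both lists. All 59 DMSO and 59 FB23-2 peaks deposited with a p-value of 0 were shared, and they lay in 41 and 39 genes. Such peaks made up 12.88% of the members' DMSO peaks and 13.29% of their FB23-2 peaks, against 10.98% and 10.77% over the whole lists. The shared part of such peaks was not computed for all genes, so full sharing is not shown to be particular to the chromatin genes. A wide peak can take in several narrow ones: 67 DMSO and 71 FB23-2 peaks were shared with a peak over 10 kb wide.

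List-only peaks numbered 94 under DMSO, 20.5% of the members' peaks against 20.1% of all, and 74 under FB23-2, 16.7% against 17.3% of all. They were found in 50 of 89 genes under DMSO (56.2%, against 35.8% of all genes) and in 49 of 91 under FB23-2 (53.8%, against 32.1%). Among genes of like peak number the shares of genes were closer. With 4 to 6 peaks, 58.6% of the members and 64.4% of all genes had a DMSO-only peak, and 54.1% and 60.9% an FB23-2-only peak. With 7 or more peaks the shares were 84.6% and 88.0%, and 81.0% and 84.0%, and with 2 to 3 peaks 39.3% and 36.0%, and 43.5% and 31.5%. With a single peak, 0 of 6 members under DMSO and 2 of 10 under FB23-2 had one, against 12.7% and 10.8% of all such genes. At least 3 list-only peaks were counted in 12 of 89 genes under DMSO (background 4.01% of genes) and in 6 of 91 under FB23-2 (2.76%). This count was not compared among genes of like peak number, and the members have more peaks per gene than all genes. In 33 genes both lists had list-only peaks, 17 genes had DMSO-only peaks alone, 16 had FB23-2-only peaks alone, and in 25 genes every peak was shared. More DMSO than FB23-2 peaks were listed for 33 genes, more FB23-2 peaks for 30, and equal numbers for 28. These 2 splits were not compared with all genes and describe the members only.

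**Figure D1:**
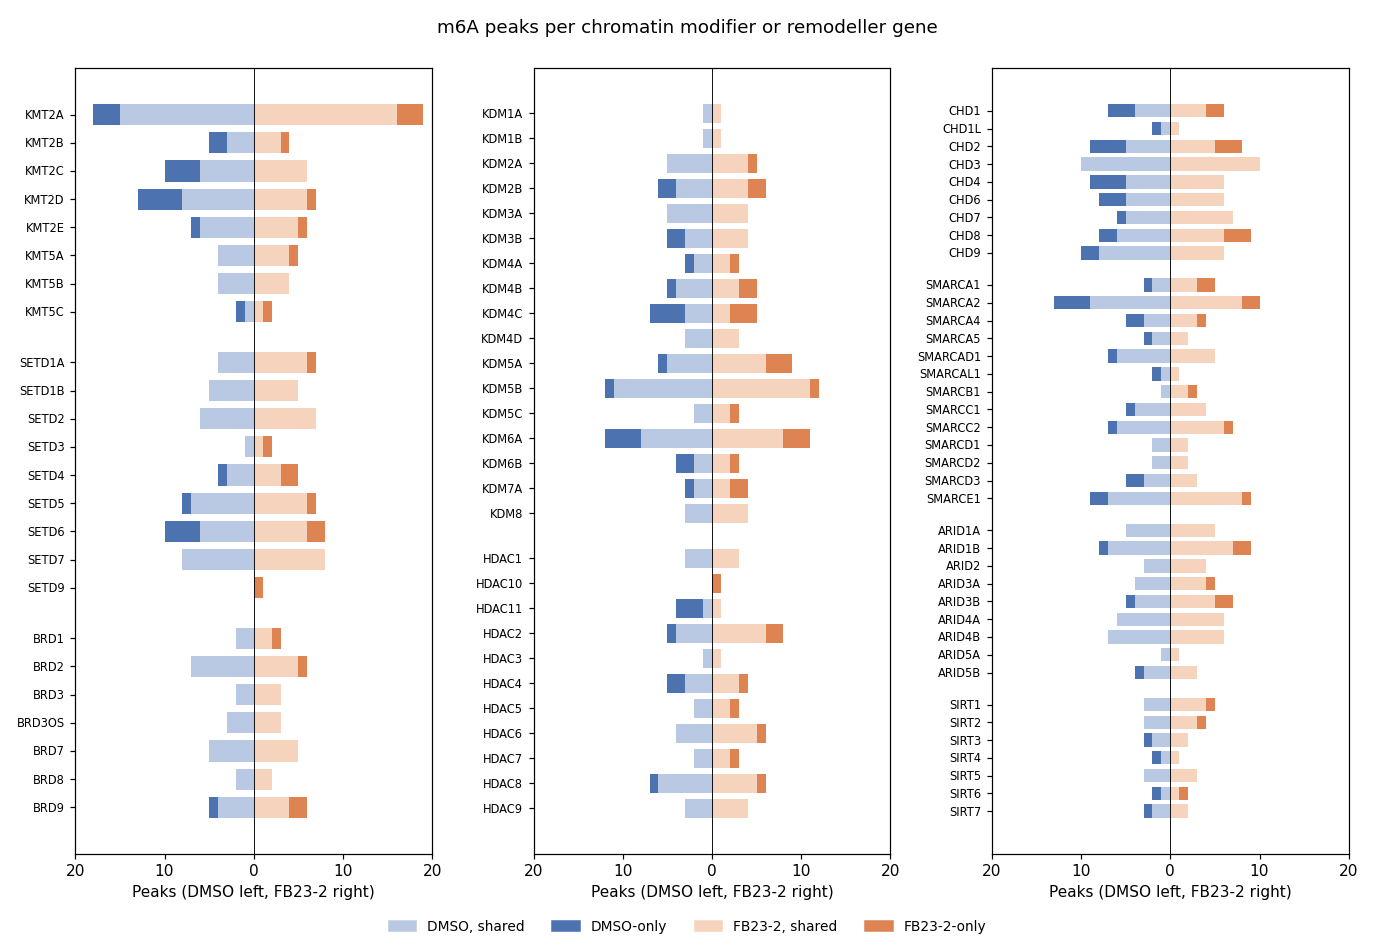
Peaks per gene for the chromatin genes, with DMSO peaks drawn to the left and FB23-2 peaks to the right of 0, pale for shared and dark for list-only peaks. KMT2A has the longest bars (18 and 19 peaks), CHD4 and KMT2C have dark bars on the DMSO side alone, and HDAC10 and SETD9 have a single dark FB23-2 bar.

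List-only peaks of the members were the weaker ones. Their median log2 fold was 1.002 under DMSO and 1.06 under FB23-2, against 1.40 and 1.38 for shared peaks, and none had a p-value of 0. A fold of at least 4, a log2 fold of at least 2, was reached by 2 DMSO-only peaks, in KDM4B and SMARCA5, and by 5 FB23-2-only peaks, among them those in KDM4B (2 peaks), HDAC7 and SETD6. Of the 94 DMSO-only peaks, 76 lay over 100 bases from any FB23-2 peak on their strand, 14 lay within 100 bases and 4 overlapped one by too little. Of the 74 FB23-2-only peaks these numbers were 56, 14 and 4. These folds, p-values and distances were not compared with those of all genes, so they are not shown to be particular to the chromatin genes.

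Within each list the members' strongest peaks were somewhat stronger than those of other genes. The median of the highest log2 fold per gene was 2.53 under DMSO and 2.54 under FB23-2, against 2.24 and 2.26 over all genes. At least 1 peak with a fold of at least 4 was found in 61 genes under DMSO (68.5%, all genes 57.0%) and in 59 under FB23-2 (64.8%, all genes 57.9%). The median over all their peaks was lower than that of the whole lists, 1.25 against 1.39 under DMSO and 1.31 against 1.42 under FB23-2. A gene with more peaks has more chances of a high one, and the 2 comparisons pointed opposite ways.

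The medians of the families ranged widely. The CHD remodeller genes had the highest median, with 3.67 and 3.56 under DMSO and FB23-2, and 7 of 9 genes had a peak with a fold of at least 4 in each list. In the SMARC family, whose members are mostly BAF subunits and related ATPases, the median was 1.57 and 1.44, and such a peak was found in 3 of 13 genes under DMSO and in 1 under FB23-2. The HDAC genes were also low, at 1.66 and 1.73, with such a peak in 3 genes in each list. In the ARID family, DNA-binding proteins with an AT-rich interaction domain, 8 of 9 genes had one.

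**Figure D2:**
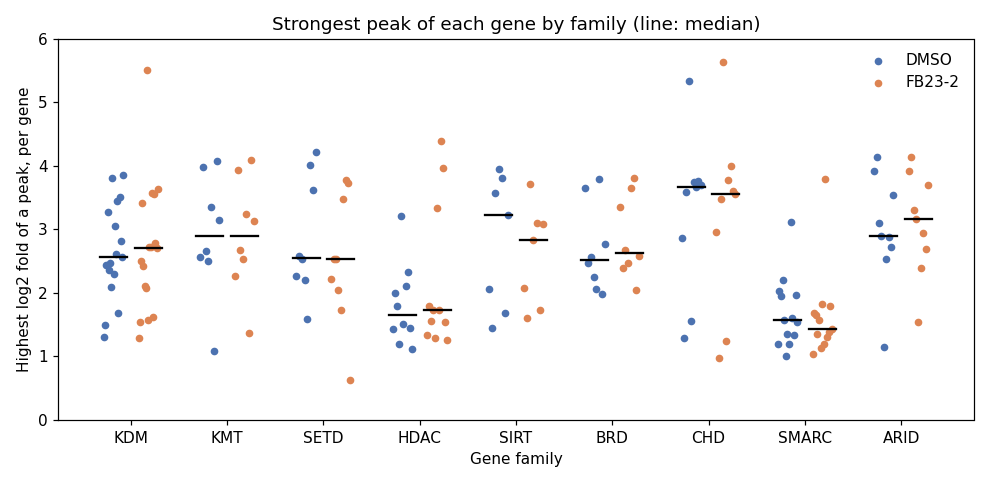
Highest log2 fold of a peak per gene (vertical axis) in 9 families, blue for DMSO and orange for FB23-2, 1 point per gene, with the median as a line. The medians of SMARC (1.57 and 1.44) and HDAC (1.66 and 1.73) lie lowest and those of CHD (3.67 and 3.56) highest, and the top points are CHD3 in both lists and KDM4B under FB23-2.

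The members' peaks were more often annotated to coding exons than those of other genes. Coding exons took 123 of 458 DMSO peaks (26.9%, exact 95% interval 22.8 to 31.2) and 109 of 444 FB23-2 peaks (24.5%, 20.6 to 28.8). Over the whole lists they took 12.9% and 12.8%, or 14.9% and 14.7% of the peaks in the 4 classes that the members have. The 3' UTR was still the largest class, with 257 (56.1%) and 260 (58.6%) peaks, against 66.2% and 65.9% of all peaks in these 4 classes. The 5' UTR held 55 and 53 peaks (12.01% and 11.9%) and introns 23 and 22.

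The higher coding share was clearest in genes with 4 to 6 peaks. There it was 31.9% (24.3 to 40.3) for the members under DMSO against 16.2% for all genes, and 29.0% (22.6 to 36.1) against 16.5% under FB23-2, with shares of all genes taken over the 4 classes. In genes with 7 or more peaks the shares were 27.1% against 22.3% and 25.0% against 20.9%, and the members' intervals (21.6 to 33.2 and 19.0 to 31.8) took in the values of all genes. In genes with 2 to 3 peaks they were 18.3% (10.1 to 29.3) against 12.47% under DMSO and 13.3% (5.94 to 24.6) against 12.48% under FB23-2, also within the intervals. None of the 6 DMSO and 10 FB23-2 peaks of members with a single peak was coding, against 5.08% and 5.93%. The KMT family had the largest part, with 34 of 63 DMSO peaks (54.0%) and 21 of 53 FB23-2 peaks (39.6%) in coding exons, while the CHD family had 23 of 69 and 18 of 59. Without the 3 genes KMT2A, KMT2C and KMT2D, a choice made after the values were seen, the coding shares were 22.3% and 22.1%.

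Coding exons held a larger share of the members' list-only than of their shared peaks: 39.4% (29.4 to 49.98) against 23.6% under DMSO and 35.1% (24.4 to 47.1) against 22.4% under FB23-2. The whole lists had the same order, with 20.1% against 11.1% and 19.3% against 11.4%. This is therefore not a pattern of the chromatin genes alone.

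**Figure D3:**
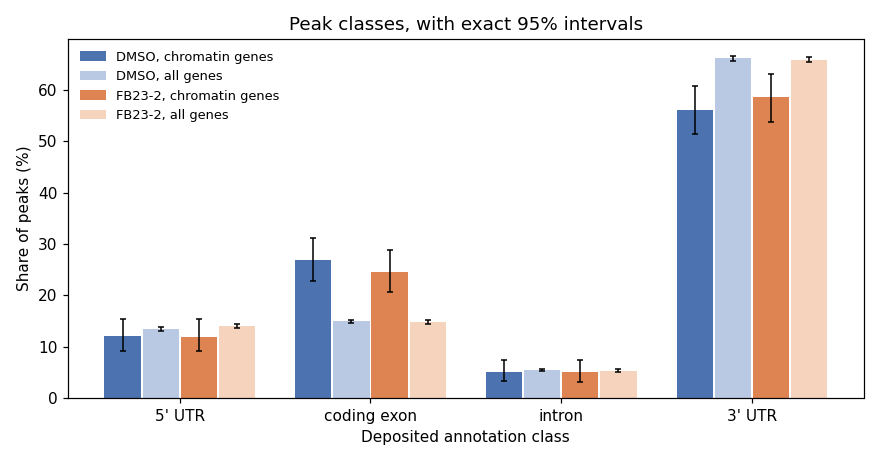
Share of peaks (percent) in 4 deposited annotation classes, dark for the 91 chromatin genes and pale for all genes, with exact 95% intervals that cover counting only; shares of all genes are taken over these 4 classes. The dark coding exon bars (26.9% and 24.5%) stand above the pale ones (14.9% and 14.7%), and the dark 3' UTR bars below the pale ones.

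The annotation classes have to be read with care. Of the members' peaks classed as 3' UTR, 73 of 257 under DMSO (28.4%) and 72 of 260 under FB23-2 (27.7%), in 29 genes each, ended over 10 kb before the gene's end, against 13.98% and 13.8% of all such peaks. An extreme case was KDM5B, whose 12 peaks in each list were all classed as 3' UTR although they ended between 2725 and 47759 bases before the gene's end. KDM5B encodes a demethylase that removes methyl groups from histone H3. Which transcript the authors' annotation used for each class is not given in the sources used here.

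Among the writers, the large KMT2 genes came first in the KMT family. KMT2A (MLL), a methyltransferase that marks active promoters and is rearranged in leukaemia, had 18 DMSO and 19 FB23-2 peaks, more than any other of the 91 genes. Of these, 12 and 8 were in coding exons and 3 in each list were list-only. With strand ignored, KMT2A had 3 DMSO-only peaks and 1 FB23-2-only peak. Its strongest peak reached 2.57 on the log2 scale in the DMSO list and 2.26 in the FB23-2 list. The peaks with a p-value of 0 spanned chr11:118501016-118507590 under DMSO and chr11:118501690-118507540 under FB23-2, with log2 folds of 2.27 and 2.24, within coding exons. Its paralogue KMT2B had fewer but a stronger peak: 5 and 4 peaks, led by a shared coding peak at chr19:35718173-35721476 whose log2 fold was 3.98 (DMSO) and 3.94 (FB23-2).

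KMT2C and KMT2D, which encode the methyltransferases of enhancers, each had more DMSO-only than FB23-2-only peaks. KMT2C had 10 DMSO peaks, 4 of them DMSO-only, and 6 FB23-2 peaks, all shared. Its 4 DMSO-only peaks were weak coding peaks with log2 folds of 0.89, 0.92, 0.94 and 1.04. KMT2D had 13 DMSO peaks, 5 of them DMSO-only with log2 folds of 0.91 to 1.27, and 7 FB23-2 peaks, 1 of them FB23-2-only at 1.18. With equal numbers of the most significant peaks per list, KMT2C had 2 DMSO-only and 0 FB23-2-only peaks and KMT2D 2 and 1. At a fold of at least 4, KMT2C had 0 and 1 and KMT2D none. That KMT2C peak (2.28) was list-only there because its DMSO partner, at 1.99, fell below the threshold. The strong peaks of both genes were shared: chr7:152171332-152182499 in KMT2C had a log2 fold of 2.65 (2.68 under FB23-2), and chr12:49030540-49033854 in KMT2D had 2.51 (2.43).

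KMT5B, which encodes a methyltransferase of histone H4, held the strongest peak of the KMT family, a shared peak at chr11:68156563-68173811 whose log2 fold was 4.07 (DMSO) and 4.10 (FB23-2). All 4 of its peaks in each list were shared. The other KMT genes, KMT2E, KMT5A and KMT5C, had 2 to 7 peaks and at most 1 list-only peak per list.

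In the SETD family, 46 DMSO and 50 FB23-2 peaks were listed, with 6 and 8 list-only. SETD7, which encodes a lysine methyltransferase with both histone and non-histone substrates, had 8 peaks in each list, all shared, and the strongest lay in the 5' UTR (chr4:139600423-139606367 under DMSO, log2 fold 4.21, and 3.73 under FB23-2). SETD5, a member with a SET domain that is mutated in intellectual disability, had a top log2 fold of 4.02 and 3.48. SETD6, whose protein methylates a subunit of NF-κB, had 10 DMSO and 8 FB23-2 peaks within a gene of 8364 bases.

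The list-only peaks of SETD6 were set close together. Of its 4 DMSO-only peaks, 3 were 100 bases wide and lay in its 3' UTR class at log2 folds of 0.91 to 1.28. Both FB23-2-only peaks were coding, at 2.11 and 1.96, next to the 5' UTR peak that had 2.60 under DMSO and 3.53 under FB23-2. The order of these counts turned with an adjusted p under 0.001, at 2 DMSO-only and 3 FB23-2-only peaks, and with equal numbers of the most significant peaks, at 0 and 3. SETD9 had a single peak in the FB23-2 list and none under DMSO (chr5:56917138-56917312, log2 fold 0.63, deposited p 0.0246), the weakest top peak of any member in either list. Over all genes, 3.88% had peaks in the FB23-2 list only and 4.80% in the DMSO list only. SETD1B, SETD2 and SETD7 had shared peaks alone.

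**Figure D4:**
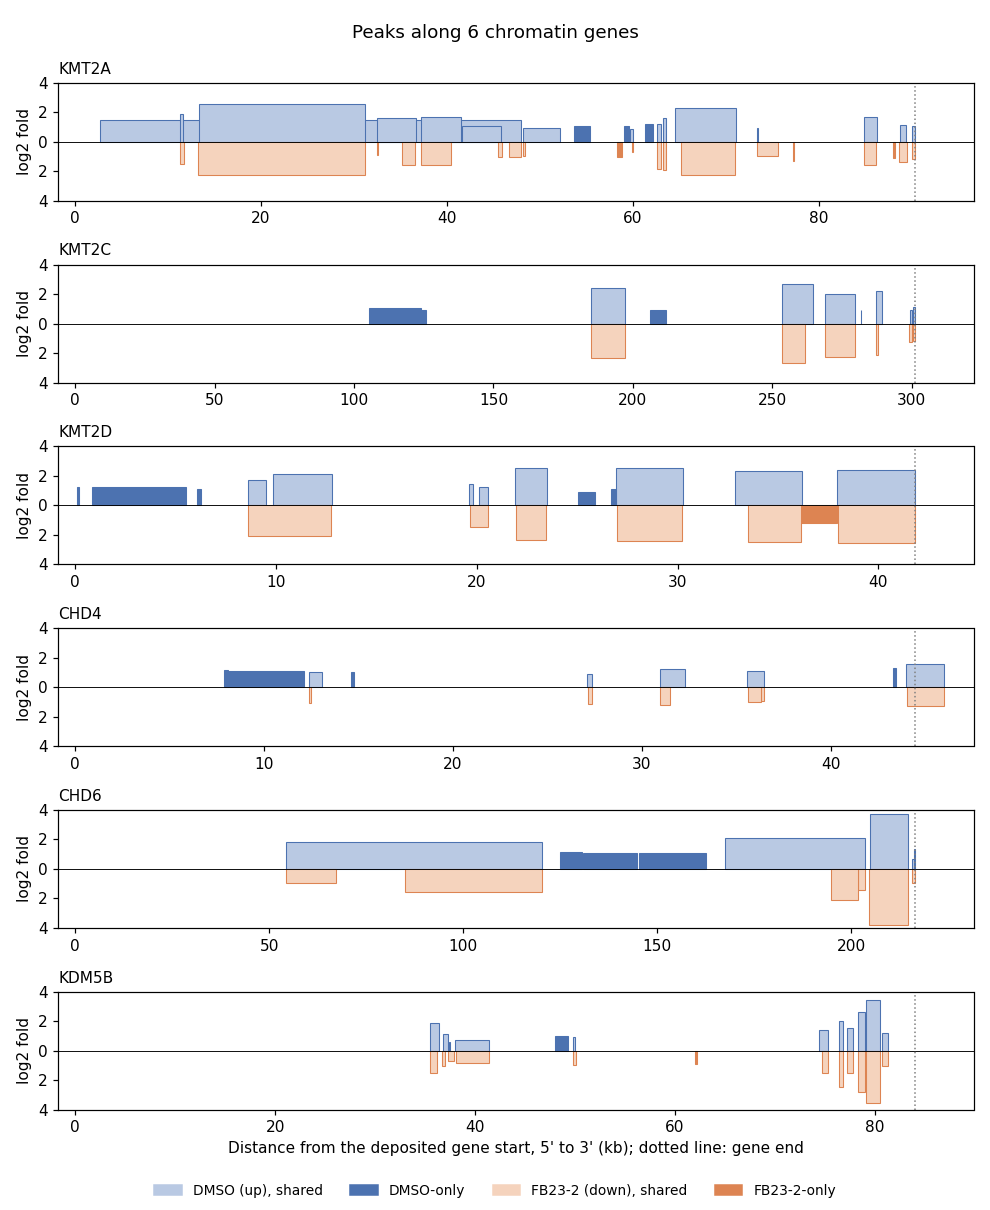
Peaks along 6 genes by distance from the deposited gene start in kb, 5' to 3', with height as the log2 fold, DMSO upwards and FB23-2 downwards, and a dotted line at the gene end. The high boxes are pale, that is shared, in all 6 genes, and the dark DMSO-only boxes of KMT2C, KMT2D, CHD4 and CHD6 are low.

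Among the erasers, the 17 KDM genes had 83 peaks in each list, with 19 DMSO-only and 20 FB23-2-only. KDM6A (UTX), an X-linked demethylase of the polycomb mark and a tumour suppressor, had 12 and 11 peaks, 4 and 3 of them list-only at log2 folds of 0.72 to 1.002 (1 and 1 with an adjusted p under 0.001). Its strongest peak had identical borders in both lists (chrX:45068861-45070495) and log2 folds of 3.51 and 3.56. The widest DMSO peak of the gene spanned 144628 bases (chrX:44873815-45018442) and ended at the same base as an FB23-2 peak 375 bases wide, so borders of shared peaks can differ widely. Its relative KDM6B had 4 and 3 peaks, with a shared coding peak at 2.82 and 2.79.

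KDM5A and KDM5B, paralogous demethylases of histone H3 at promoters, differed in layout. KDM5A had 6 DMSO and 9 FB23-2 peaks, with 1 and 3 list-only, and its FB23-2-only peaks had log2 folds of 0.72, 0.86 and 0.98. With equal numbers of the most significant peaks it had 1 list-only peak in each list. KDM5B had 12 peaks in each list and 1 list-only peak in each, at 0.98 and 0.92. Its strongest peak (chr1:202728020-202729369) had identical borders in both lists and log2 folds of 3.44 and 3.57.

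In the KDM4 genes, demethylases of heterochromatin marks, strong list-only peaks were found beside weak ones. KDM4B had an intronic DMSO-only peak at chr19:5078979-5079128 with a log2 fold of 3.81 and an intronic FB23-2-only peak at chr19:5078604-5078753 with 3.83. These 2 peaks, each 150 bases wide, lay 225 bases apart, so each list had 1 peak within the same stretch of the intron. A further FB23-2-only peak of KDM4B (chr19:5112248-5112397) had the highest fold of the family, 5.51 on the log2 scale, with a deposited p of 7.45e-08. That p was far from the smallest in the gene, where a shared coding peak had 6.73e-25. KDM4C had 7 and 5 peaks with 4 and 3 list-only, all of these at log2 folds of 0.78 to 1.22 and 6 of them within 375 bases of a peak of the other list.

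KDM8, which encodes a hydroxylase of the JmjC family, had the highest DMSO fold of the KDM genes, 3.85 in the 3' UTR (3.63 under FB23-2), and shared peaks alone. The demethylases of the LSD type, KDM1A and KDM1B, had 1 shared peak each, at 1.30 and 1.29 in KDM1A and 1.49 and 1.54 in KDM1B. The remaining KDM genes had 2 to 6 peaks per list and at most 2 list-only.

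The HDAC genes had fewer peaks, 36 in 10 genes under DMSO and 40 in 11 under FB23-2. HDAC1 and HDAC2, the catalytic subunits of NuRD and SIN3 complexes, had 3 and 3 peaks and 5 and 8 peaks. All peaks of HDAC1 were shared, at log2 folds of 0.84 to 1.43 under DMSO and 0.995 to 1.34 under FB23-2. Of the 8 FB23-2 peaks of HDAC2, 3 overlapped a single DMSO peak of 500 bases (chr6:113939103-113939602), so the higher number was in part a matter of borders.

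HDAC4, a class IIa deacetylase, had the strongest DMSO peak of the family in its 3' UTR, chr2:239051743-239053042, with a log2 fold of 3.21 and 3.33 under FB23-2. Its DMSO-only 5' UTR peak spanned 91273 bases at a log2 fold of 1.48. HDAC7, also of class IIa, had 2 peaks in each list that were shared, led by 2.33 and 2.27 in its 3' UTR, and an FB23-2-only 5' UTR peak (chr12:47819845-47833079) at 3.96 with a deposited p of 5.13e-09. HDAC8 had 7 and 6 peaks at log2 folds of up to 1.45 and 1.54.

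HDAC11, the class IV deacetylase, had 4 DMSO peaks, 3 of them DMSO-only at log2 folds of 0.99, 1.16 and 1.99, and 1 FB23-2 peak, which was shared. With an adjusted p under 0.001 it had 1 DMSO-only peak. HDAC10 had no DMSO peak and 1 FB23-2 peak at chr22:50245208-50245726 in its 3' UTR, with a log2 fold of 1.79 and a deposited p of 1.43e-07. The nearest DMSO peak on that strand began or ended 279 bases away and was assigned to another gene. HDAC6, the cytoplasmic tubulin deacetylase, is named although the rule for named genes did not take it, and was chosen after its values were seen. Its shared 5' UTR peak had a log2 fold of 2.12 over 425 bases under DMSO, where the FB23-2 list had a peak of 4.39 over 200 bases and another of 1.95 over 175 bases.

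The 7 sirtuin genes, NAD-dependent deacylases, had 19 peaks in each list, with 4 DMSO-only and 3 FB23-2-only. Under DMSO the strongest were those of mitochondrial members. SIRT4 had a 5' UTR peak at 3.95 on the log2 scale under DMSO and 2.83 under FB23-2, and SIRT5 a shared peak with 3.82 and 3.10. SIRT1, the nuclear deacetylase, had 3 DMSO and 5 FB23-2 peaks of up to 2.05 and 2.08.

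Among the readers, the BRD family of 8 genes had 35 DMSO and 37 FB23-2 peaks, and 3 and 6 were list-only. BRD3OS is not a bromodomain gene, but its 3 peaks in each list, all shared, are counted here. BRD2 had 7 DMSO peaks, all shared, and 6 FB23-2 peaks, of which 1 was FB23-2-only (chr6:32980091-32980265, log2 fold 1.01) and lay 50 bases from a DMSO peak. A single FB23-2 peak of 6069 bases overlapped the 3 DMSO peaks at the 5' end, among them the peak over the printed start.

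BRD7, which encodes a subunit of the PBAF complex, held the strongest DMSO peak of the family, 3.79, with identical borders under FB23-2 and 3.82. BRD1, a scaffold of histone acetyltransferase complexes, had a 5' UTR peak with a log2 fold of 3.65 and 3.35 and an FB23-2-only coding peak at 1.27. BRD3, BRD3OS, BRD7 and BRD8 had shared peaks alone.

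Among the remodellers, the CHD family had the highest share of DMSO-only peaks. There were 20 among 69 DMSO peaks (29.0%, exact 95% interval 18.7 to 41.2), in 8 of 9 genes, and 8 FB23-2-only among 59 (13.6%, 6.04 to 25.0), in 3 of 9 genes. Both intervals take in the background shares of 20.1% and 17.3%, so the family did not stand apart from all peaks. Of all genes, 35.8% had a DMSO-only and 32.1% an FB23-2-only peak. Among all genes with 7 or more peaks these shares were 88.0% and 84.0%. CHD was the family with the largest gap between the lists, in a set of 9 examined. The gap stood with only the most significant peaks of each list, at 16 of 57 and 7 of 51 (28.1% and 13.7%). There the SETD family had a wider gap the other way, 2.78% and 20%, and HDAC a higher DMSO-only share, 29.2%. With a fold of at least 4 the CHD counts were 1 of 15 and 2 of 16. That threshold cut each list before matching, and these peaks lost a partner that fell below it. Their log2 folds under DMSO and FB23-2 were 2.12 and 1.48 in CHD2, 1.94 and 2.30 in CHD7, and 1.99 and 2.04 in CHD9. All were shared without the threshold, so no turn of the gap is shown. Where 50% of both peaks had to overlap, the CHD shares were 49.3% and 40.7%, a smaller gap than that of the KMT family (49.2% and 39.6%).

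CHD4, the ATPase of the NuRD complex, had 9 DMSO peaks, 4 of them DMSO-only, and 6 FB23-2 peaks, all shared. The DMSO-only peaks were weak but not of low significance. A coding peak at chr12:6599786-6599935 had a log2 fold of 0.996 with a deposited p of 1.99e-86, and a 5' UTR peak at chr12:6602404-6606429 had 1.08 with a p of 2.73e-69. The remaining DMSO-only peaks, 1 intronic and 1 in the 5' UTR, had 1.29 and 1.19. No CHD4 peak of either list reached a fold of 4, and the highest log2 folds were 1.56 (DMSO) and 1.25 (FB23-2).

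CHD6 had 3 DMSO-only coding peaks in a row, at log2 folds of 1.06, 1.10 and 1.14, between chr20:41455889 and 41493582, and no FB23-2-only peak. Its strongest peak, near the 3' end, was shared at 3.75 and 3.78. CHD9 had 10 and 6 peaks with 2 DMSO-only at 0.69 and 0.76, and 3 of its DMSO peaks lay within a single FB23-2 peak at chr16:53314901-53326172. CHD1, whose chromodomains bind methylated histone H3, had 3 DMSO-only peaks at 0.73 to 0.91 and 2 FB23-2-only peaks at 0.90 and 0.94. CHD2 had 4 and 3 list-only peaks at 0.85 to 1.87, and CHD8, a negative regulator of beta-catenin, had 2 and 3 at 0.71 to 1.27.

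CHD3, the NuRD paralogue of CHD4, had the strongest DMSO and FB23-2 peak of all 91 genes and no list-only peak. It had 10 peaks in each list, all shared, and its 5' UTR peak (chr17:7884796-7886787 under DMSO) reached a log2 fold of 5.34 (DMSO) and 5.63 (FB23-2). The paralogues CHD3 and CHD4 thus differed in both respects. CHD7, mutated in CHARGE syndrome, had the widest peaks of the members, 145078 and 145153 bases from near the gene's start, at 2.49 and 2.50, and a 3' UTR peak at 3.67 and 3.996.

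**Figure D5:**
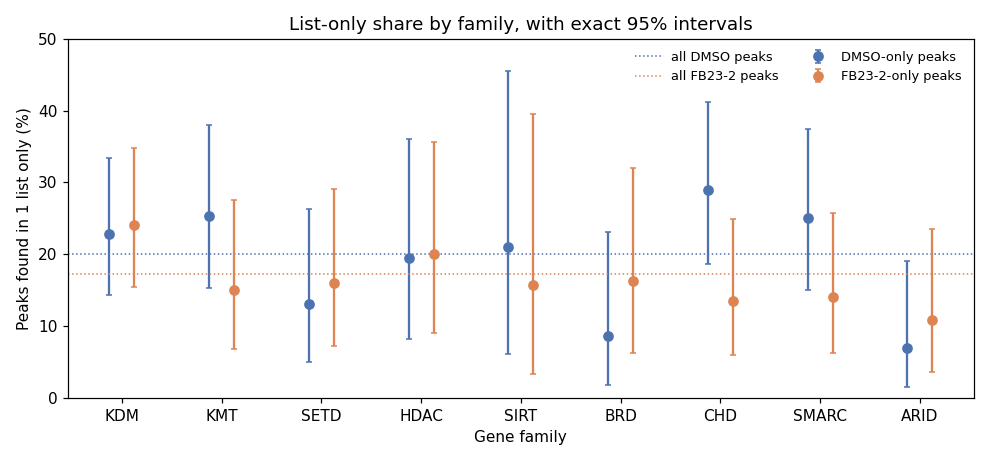
Share of list-only peaks (percent) per family, blue for DMSO and orange for FB23-2, with exact 95% intervals that cover counting only, and dotted lines at the shares of all peaks (20.1% and 17.3%). The gap between the points is widest for CHD (29.0% and 13.6%), and most intervals cross their dotted line.

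The 13 SMARC genes had 64 DMSO peaks, 16 of them DMSO-only in 10 genes, and 57 FB23-2 peaks, 8 of them FB23-2-only in 6 genes. SMARCA2 and SMARCA4, the alternative ATPases of the BAF complex, had 13 and 10 peaks and 5 and 4 peaks. SMARCA2 had 4 DMSO-only peaks at log2 folds of 0.60 to 1.06 and 2 FB23-2-only peaks at 0.62 and 1.06. Where 50% of both peaks had to overlap, 10 and 7 were list-only. SMARCA4 had 2 DMSO-only peaks at 0.94 and 1.05 and 1 FB23-2-only peak at 0.997. The strongest peaks of both were shared, at 2.03 and 1.69 in SMARCA2 and 1.95 and 1.66 in SMARCA4.

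SMARCC2, a scaffold subunit, had the strongest peak of the family in both lists. Its 5' UTR peak at chr12:56186995-56190118 had identical borders in both lists and log2 folds of 3.12 under DMSO and 3.79 under FB23-2. Its paralogue SMARCC1 had no peak above 1.19 in either list. SMARCA5, the ISWI ATPase, had 2 shared peaks and a DMSO-only peak 175 bases wide in the 3' UTR at 2.21. The core subunit SMARCB1 had 1 DMSO and 3 FB23-2 peaks of up to 1.35 and 1.83.

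The ARID genes had the lowest share of list-only peaks under DMSO, 3 of 43 (6.98%, 1.46 to 19.1), and 5 of 46 under FB23-2 (10.9%, 3.62 to 23.6). The first interval ends below the 20.1% of all DMSO peaks and the second takes in the 17.3%. That rank depended on the setting. SIRT, SETD and BRD were lower with an adjusted p under 0.001 (6.25%, 7.5% and 8.82% against 10%). The same families were lower with equal numbers of peaks (6.25%, 2.78% and 6.06% against 9.68%). BRD was lower with any overlap (5.71%). With a fold of at least 4 several families had 0% and ARID 14.3%, from peaks of ARID3A and ARID4B whose partner fell below the threshold. With 50% of both peaks the ARID share was 23.3%, still the lowest, with SETD next at 26.1%. ARID1A, the BAF subunit most often mutated in cancer, had 5 peaks in each list, all shared. It had strong peaks at both ends of the gene, with log2 folds of 3.81 and 3.84 in the 5' UTR and 3.93 and 3.92 in the 3' UTR. ARID1B, its alternative, had 8 and 9 peaks, with 1 and 2 list-only at 1.08 to 1.37, and a shared 3' UTR peak of 4.13 in both lists. ARID2, ARID4A, ARID4B and ARID5A had shared peaks alone, although 1 DMSO peak of ARID4B was shared with an FB23-2 peak that the authors assigned to RBM34.

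Partner genes outside the name rule were described from 10 lists of 113 chromatin genes, all of which had a peak in both lists. They had 445 DMSO peaks with 81 DMSO-only (18.2%) and 435 FB23-2 peaks with 67 FB23-2-only (15.4%). Coding exons took 21.1% (17.4 to 25.2) and 22.8% (18.9 to 27.0) of them, also above the share of all genes. By list, the coding share was highest for the INO80, SRCAP and ISWI genes, 38.1% and 41.3%, and lowest for the PRC1 genes of the polycomb group, 9.09% and 13.0%.

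The partner genes named here were picked for having at least 3 list-only peaks in a list. Over all genes, 4.01% had that many under DMSO and 2.76% under FB23-2, without regard to peak number. In some of the picked genes the list-only peaks were on 1 side. MTF2, an accessory subunit of PRC2, had 7 DMSO peaks with 5 DMSO-only and 2 FB23-2 peaks, both shared. BAZ2B, a bromodomain gene of the ISWI group, had 5 DMSO-only among 11 peaks and 0 FB23-2-only among 8, and KAT6B, an acetyltransferase, had 3 among 12 and 0 among 9. NSD2, a methyltransferase, went the other way, with 1 DMSO-only among 9 and 5 FB23-2-only among 12. The corepressor SIN3A had 3 among 6 and 4 among 6, beside a highest log2 fold of 4.11 and 4.18. The rest also had DMSO-only and FB23-2-only peaks: DNMT3A (4 and 3), PHC3 (5 and 2), SIN3B (2 and 3), EHMT1 (2 and 3), BAZ1A (1 and 3) and RSF1 (3 and 1).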

How the data were processed

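GRCh38, Cuffdiff and HISAT2 are listed in the submitters' processing notes. The peak caller, like tool versions and strand handling, is not given in the sources used here. Per the file headers, each peak has a position, a log2 fold change (log2), a p-value and an adjusted p-value, all made by the authors before they were deposited, with an annotation class and gene. As no column belongs to a sample, a table stands for the pooled list of its treatment (3 samples each), and no test between treatments was made. The deposited starts count from 0, so 1 base was added.

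Members were chosen by gene name. Overlap on 1 strand, exact (Clopper-Pearson) 95% intervals, which cover counting only, and position in the gene were computed with scipy 1.17.1, pandas 2.3.3 and numpy 2.4.6 in Python 3.11.15, and drawn with matplotlib 3.10.9. The overlap step was tested on simulated data. Promoter sequences are from RefSeq (GRCh38.p14).

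The members, the partner lists and the rule for named genes were chosen with earlier results of these data known. The rule took, per family, the 2 genes with the highest DMSO fold, genes with at least 3 list-only peaks in a list, peaks in 1 list only or no shared peak, the 8 with the most peaks, the 5 with the widest, CHD4, BRD2 and 6 paralogue pairs. Partner genes were eligible with at least 3 list-only peaks in a list. The values of 1 member are not reported here. Members beyond the rule serve as examples of their family. Alternatives ignored strand, asked for any overlap or for 50% of both peaks, or kept peaks by fold (at least 4), by adjusted p (under 0.001) or by rank (the top 33470 of each list, 80% of the shorter).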

Additional observations from a re-analysis of the deposited data

How the results depend on the processing

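Of 68 values recomputed under other settings, 51 stayed within their interval or within 1.5 times, and 17 moved further. With a fold of at least 4 in both lists, 91.3% of DMSO peaks were shared (all genes 84.8%). List-only peaks fell to 9 (DMSO) and 18 (FB23-2) in 9 and 15 genes, and the DMSO coding share was 20.4%. The median peaks per gene was 1 and 2, and the median highest log2 fold 3.05 and 3.16. The threshold itself removes weak peaks, and a peak above it counts as list-only where its partner falls below. Where 50% of both peaks had to overlap, 60.7% and 62.4% were shared (all genes 64.4% and 65.9%), with 180 and 167 list-only peaks. With 33470 peaks per list, 84.1% of DMSO peaks were shared (all genes 85.2%) and 57 were DMSO-only. Without KMT2A, KMT2C and KMT2D the DMSO coding share was 22.3%; this and leaving out KDM5B were chosen after seeing the data. CHD4 kept 4 DMSO-only and 0 FB23-2-only peaks with an adjusted p under 0.001, any overlap, strand ignored and equal list lengths, had 6 and 3 with 50% of both, and had no peak at a fold of at least 4. No paired analysis was possible because neither table has replicate numbers or samples, and leaving out replicates was not run for the same reason. Depth is unknown, so whether a peak in 1 list fell short of detection in the other was not tested.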
